A study of Homo sapiens with 4 samples.

Results

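Here 3 families of microRNA (miRNA) that have been reported to act on VEGF-C were described in PC-3 cells: miR-101, miR-128 and miR-186. Their rows were chosen by name, as every row of the deposited table named for one of these numbers. This gave 5 of the 1096 rows, namely miR-101-3p, miR-101-2-3p, miR-128-1-3p, miR-128-2-3p and miR-186-5p. PC-3 is an established human prostate cancer cell line, and it was grown in medium with 10% serum in both groups. The control group had no treatment, and the other group was given apelin at 10 µg/mL for 24 h. Each group had 2 small RNA libraries, called control 1 and 2 and apelin 1 and 2. No label says whether 2 libraries of a group are separate cultures; every p-value therefore measures only how far these libraries spread, which may be technical.

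A miRNA is a short RNA that guides the Argonaute protein to messenger RNAs, mostly by pairing of its seed (bases 2 to 8) with the 3′ untranslated region (UTR), and lowers their stability and translation. VEGF-C is a secreted growth factor that drives the growth of lymphatic vessels through the receptor VEGFR-3 (FLT4), and the study's title names it as its question. Apelin is a secreted peptide that signals through the receptor APJ. miR-101 is best known as a repressor of the histone methyltransferase EZH2, and its loss is known in prostate cancer. miR-128 is abundant in brain and represses the polycomb protein BMI1. miR-186 is made from an intron of ZRANB2, which encodes a splicing factor.

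The mature sequences show how far the seeds of the families are alike. They are from RefSeq (build GRCh38.p14), which matched 4 of the 5 rows. They are written 5′ to 3′ with the seed in capitals.
miR-101-3p and miR-101-2-3p: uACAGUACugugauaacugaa
miR-128-1-3p and miR-128-2-3p: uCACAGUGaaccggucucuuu
The seeds of miR-101-3p and miR-128-3p are different but share a run of 5 bases. miR-186-5p is named only.

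Each of these 2 sequences is made from 2 hairpins, and the hairpins show why the copy-named rows cannot be told apart by a read of the mature miRNA. The mature miRNA is in capitals in the RefSeq hairpins.
MIR101-1: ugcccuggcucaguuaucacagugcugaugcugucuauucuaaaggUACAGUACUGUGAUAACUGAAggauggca
MIR101-2: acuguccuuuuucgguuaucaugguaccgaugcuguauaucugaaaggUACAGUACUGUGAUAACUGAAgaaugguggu
MIR128-1: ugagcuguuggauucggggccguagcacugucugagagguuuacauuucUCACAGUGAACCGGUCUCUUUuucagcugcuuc
MIR128-2: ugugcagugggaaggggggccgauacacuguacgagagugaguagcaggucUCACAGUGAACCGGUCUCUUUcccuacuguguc
The longest run that the 2 miR-101 hairpins share has 27 bases, and that of the 2 miR-128 hairpins has 23. The listed length of the miR-101 rows is 22 nt, against 21 nt in RefSeq.

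On GRCh38 (GENCODE 29), MIR101-1 lies on chromosome 1 from 65058434 to 65058508 on the minus strand, inside no protein-coding gene. MIR101-2 lies on chromosome 9 from 4850297 to 4850375 on the plus strand, in an intron of RCL1, where another gene, AL158147.1, also overlaps it. MIR128-1 lies on chromosome 2 from 135665397 to 135665478 on the plus strand, in an intron of R3HDM1. MIR128-2 lies on chromosome 3 from 35744476 to 35744559 on the plus strand, in an intron of ARPP21, a gene known from brain. MIR186 lies on chromosome 1 from 71067631 to 71067716 on the minus strand, in an intron of ZRANB2. The 5 hairpins thus lie at 5 separate places of the genome, and 4 of them are intronic. The less abundant arms of these hairpins were not analysed here.

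The VEGFC messenger RNA holds the complement of both seeds. Its 3′ UTR (GENCODE 29 transcript VEGFC-202) has 388 bases on chromosome 4 from 176683538 to 176683925, minus strand. It was searched on the transcript's strand only, for the complement of bases 2 to 8 of each miRNA, of bases 2 to 7 followed by A, and of bases 2 to 7 alone. The sites are printed as DNA, 5′ to 3′ on the transcript's strand, with the match in capitals.
miR-101-3p site: gattGTACTGTtttccagt
miR-128-3p site: caattggtaaaactCACTGTGatcaatat
miR-27b-3p site: aattggtaaaactcACTGTGAtcaatatt
The miR-101-3p site (letters GTACTGT) covers bases 5 to 11 of the UTR, close behind the stop codon, and the printed stretch is chr4:176683907-176683925. The miR-128-3p site (letters CACTGTG) covers bases 324 to 330, near the other end, in chr4:176683588-176683616. These letters are followed by A, so bases 2 to 7 of miR-128-3p followed by A also matched there, at bases 325 to 331 (letters ACTGTGA). miR-27b-3p, another miRNA reported to act on VEGF-C, matches bases 325 to 331 with the letters ACTGTGA, in chr4:176683587-176683615. These miR-128 and miR-27 matches overlap. Away from them, miR-27b-3p had a match of bases 2 to 7 followed by A at bases 67 to 73 (letters CTGTGAA), and miR-128-3p one of bases 2 to 7 alone at bases 43 to 48 (letters ACTGTG). Among the 13172 genes with a 3′ UTR at least as long as that of VEGFC, the first 388 bases held GTACTGT in 2.18%, CACTGTG in 5.53%, ACTGTGA in 4.74%, CTGTGAA in 5.61% and ACTGTG in 15.8%. The share with CACTGTG followed by A was not counted. A match is a description of letters, and VEGFC mRNA and protein were not measured in these data.

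**Figure D1:**
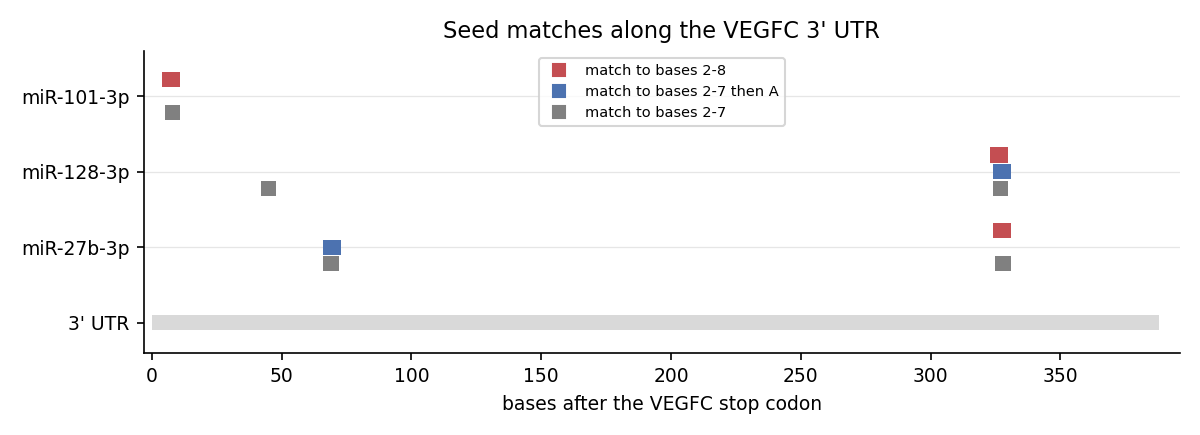
Position of seed matches along the VEGFC 3′ UTR, in bases after the stop codon (horizontal axis, 388 bases), for miR-101-3p, miR-128-3p and miR-27b-3p. Red marks the complement of bases 2 to 8, blue that of bases 2 to 7 followed by A, and grey that of bases 2 to 7 alone. The only red miR-101-3p mark is at bases 5 to 11. The red miR-128-3p mark (bases 324 to 330) and the red miR-27b-3p mark (bases 325 to 331) overlap at bases 325 to 330.

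The overlapping seeds come from a shared run of 8 bases, which starts 1 base later in miR-27 than in miR-128. The complement of bases 2 to 7 of miR-128-3p is thus also the complement of bases 3 to 8 of miR-27a-3p and miR-27b-3p. These are shown with that run of 6 bases in capitals.
miR-27a-3p: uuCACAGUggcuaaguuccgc
miR-27b-3p: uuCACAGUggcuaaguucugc

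Levels are given in TPM, which in this table is counts per 1000000 counts of the library, with no division by length; the 5 rows have listed lengths of 21 or 22 nt. The library totals ran from 5322429 to 6014838 counts. A count of 0 would allow up to 3 counts, or 0.499 to 0.564 TPM, which covers counting error only, since 1 molecule can give several PCR reads and the protocols name no molecular identifiers. All 5 rows were above 0 in all 4 libraries, with 2289 to 15270 counts, and all 5 passed the minimum for testing, a mean of 10 TPM. Of 516 rows with a catalogue name, miR-186-5p ranked 50 by mean TPM, miR-128-1-3p 58, miR-128-2-3p 61, miR-101-2-3p 80 and miR-101-3p 81. In all 4 libraries miR-186-5p was the highest of these 5, the miR-128 rows came next and the miR-101 rows were the lowest.

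The copy-named rows of a family were near-duplicates, though no 2 of the 5 rows had the same 4 counts. miR-101-2-3p exceeded miR-101-3p by 27 to 91 counts per library, a ratio of 1.01 to 1.02. miR-128-1-3p exceeded miR-128-2-3p by 860 to 1164 counts, a ratio of 1.14 to 1.154. Each pair has 1 mature sequence, and the sources used here do not give how the authors counted reads shared by 2 hairpins. The 2 rows of a pair are therefore not 2 measurements, their values are uncertain as to copy, and the 5 rows stand for 3 miRNAs.

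With apelin the miR-101 rows had higher levels and the miR-128 rows lower levels than in controls, while miR-186-5p was nearly level. None of these differences passed the edgeR test. Entries were tested with edgeR's quasi-likelihood test over all 263 entries with a mean of at least 10 TPM, and p-values were adjusted over all of them (Benjamini-Hochberg, threshold 0.05). It called 0 of the 5 rows, and 0 of all tested entries (0%). Without adjustment, 0 of the 5 rows and 15 of all tested entries (5.7%) had p under 0.05. DESeq2 called 1 of the 5, miR-128-1-3p, against 53 of 263 entries (20.2%, with 12.9% called lower), and limma on log2(TPM + 1) called 0 of the 5 against 4 of 263 (1.52%). In these bulk libraries fewer cells with a miRNA and less of it per cell cannot be told apart.

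miR-101-3p had 381 TPM in control 1 and 455 TPM in control 2, against 509 TPM in apelin 1 and 725 TPM in apelin 2. Both apelin libraries lay above both controls, but apelin 1 and apelin 2 were 216 TPM apart, while the nearest control and apelin libraries were only 54.5 TPM apart. Controls had a mean of 418 ± 52.4 TPM (SD, n = 2) and apelin libraries one of 617 ± 153 TPM (SD, n = 2). The fitted log2 change was 0.60 (SE 0.28, 95% interval -0.30 to 1.49, adjusted p = 0.627 by edgeR). Without apelin 2 it was 0.21. Its copy row miR-101-2-3p had 389 TPM (control 1), 459 TPM (control 2), 516 TPM (apelin 1) and 741 TPM (apelin 2). It showed the same order of libraries, with a fitted log2 change of 0.60 (SE 0.28, adjusted p = 0.627 by edgeR), or 0.20 without apelin 2. A setting added after seeing the data took only the 207 catalogue rows above 0 in each library with a mean of at least 10 TPM. There neither miR-101 row was called (adjusted p = 0.436 in edgeR and 0.174 in DESeq2, for both). With a replicate block, edgeR called both there (adjusted p = 0.0173 for each), among 30 of the 207 rows. No label pairs libraries by number, and on all 263 entries the blocked run called 0. Without apelin 2 the fitted values were 0.21 and 0.20, with the scaling refitted on the libraries kept. In TPM the log2 difference of the summed miR-101 rows was 0.55, and 0.29 without apelin 2. A large part of the difference thus went with 1 library, and how large depended on the scaling.

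miR-128-1-3p had 1522 TPM in control 1 and 1486 TPM in control 2, against 1212 TPM in apelin 1 and 1277 TPM in apelin 2. Here the groups were tight: the controls were 36.3 TPM apart and the apelin libraries 65.6 TPM, and the nearest control and apelin libraries were 208 TPM apart. Controls had a mean of 1504 ± 25.6 TPM (SD, n = 2) and apelin libraries one of 1245 ± 46.4 TPM (SD, n = 2), a difference of -17.2%. The fitted log2 change was -0.25 (SE 0.12, 95% interval -0.64 to 0.13, adjusted p = 0.627 by edgeR). DESeq2 called it narrowly, with a fitted log2 change of -0.26 (SE 0.099, adjusted p = 0.0499). Without apelin 2 the edgeR value was -0.39.

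The copy row miR-128-2-3p had 1329 TPM (control 1), 1308 TPM (control 2), 1050 TPM (apelin 1) and 1120 TPM (apelin 2). The fitted log2 change was -0.26 (SE 0.12, adjusted p = 0.627 by edgeR), and it was -0.41 without apelin 2. DESeq2 did not call it (adjusted p = 0.0632), so the 2 rows of 1 mature sequence fell on either side of the DESeq2 threshold. On 207 catalogue miRNAs above 0 in all libraries with a mean of at least 10 TPM, DESeq2 called neither row (adjusted p = 0.543 for both). This setting was added after seeing the data. In its run on all entries DESeq2 had called 10.1% of these 207. In that setting edgeR gave an adjusted p = 0.568 for both.

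miR-186-5p had 2539 TPM in control 1 and 2469 TPM in control 2, against 2596 TPM in apelin 1 and 2559 TPM in apelin 2. In TPM both apelin libraries lay above both controls, by a gap of 20.2 TPM, which is less than the 69.5 TPM between the controls. With the TMM scaling of the edgeR fit the groups overlapped, at a log2 CPM of 11.34 in control 1 and 11.31 in apelin 1. Controls had a mean of 2504 ± 49.1 TPM (SD, n = 2) and apelin libraries one of 2577 ± 26.3 TPM (SD, n = 2). The fitted log2 change was 0.061 (SE 0.095, adjusted p = 0.848 by edgeR), and its 95% interval of -0.25 to 0.37 spans 0.84-fold to 1.29-fold. Its sign was not stable in the edgeR fit, with -0.029 without apelin 2 and -0.0058 without control 2. There the scaling was refitted on the libraries kept. In TPM the sign could not turn with 1 library left out, since both apelin libraries lay above both controls.

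**Figure D2:**
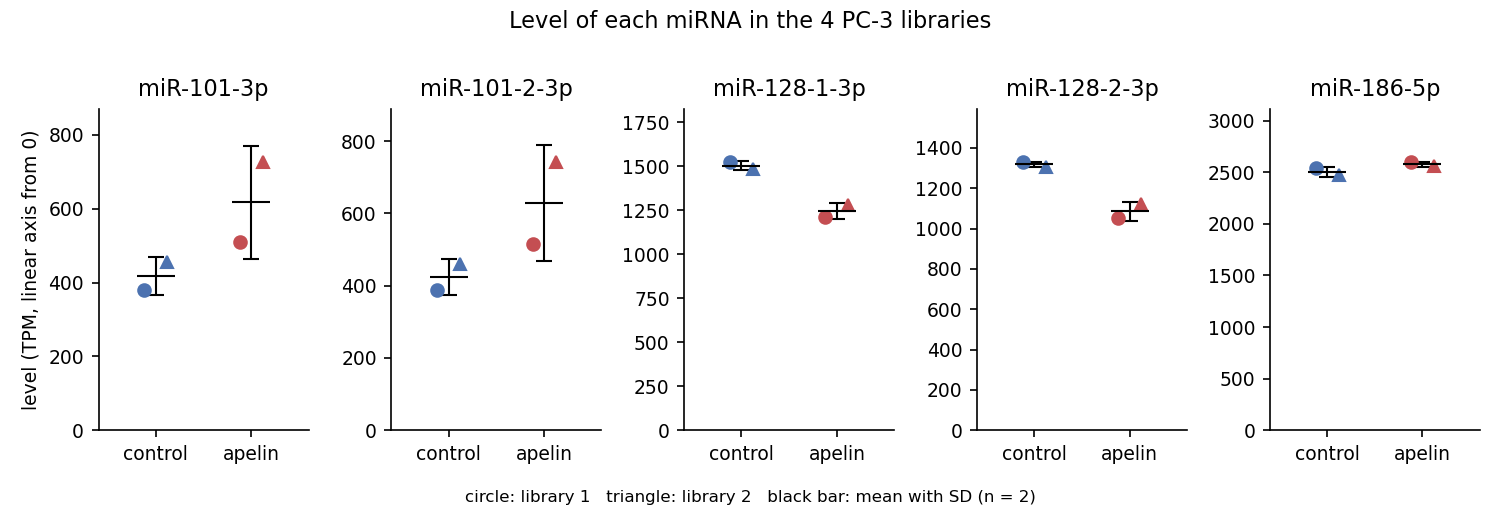
Level in TPM (vertical axes, linear from 0, each panel on its own scale) of the 5 rows in the control (blue) and apelin (red) libraries; circles are library 1, triangles library 2, and black bars the mean with SD (n = 2). Both apelin libraries sit above both controls for the 2 miR-101 rows, with apelin 2 far above apelin 1, and below both controls for the 2 miR-128 rows, while miR-186-5p is nearly level.

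**Figure D3:**
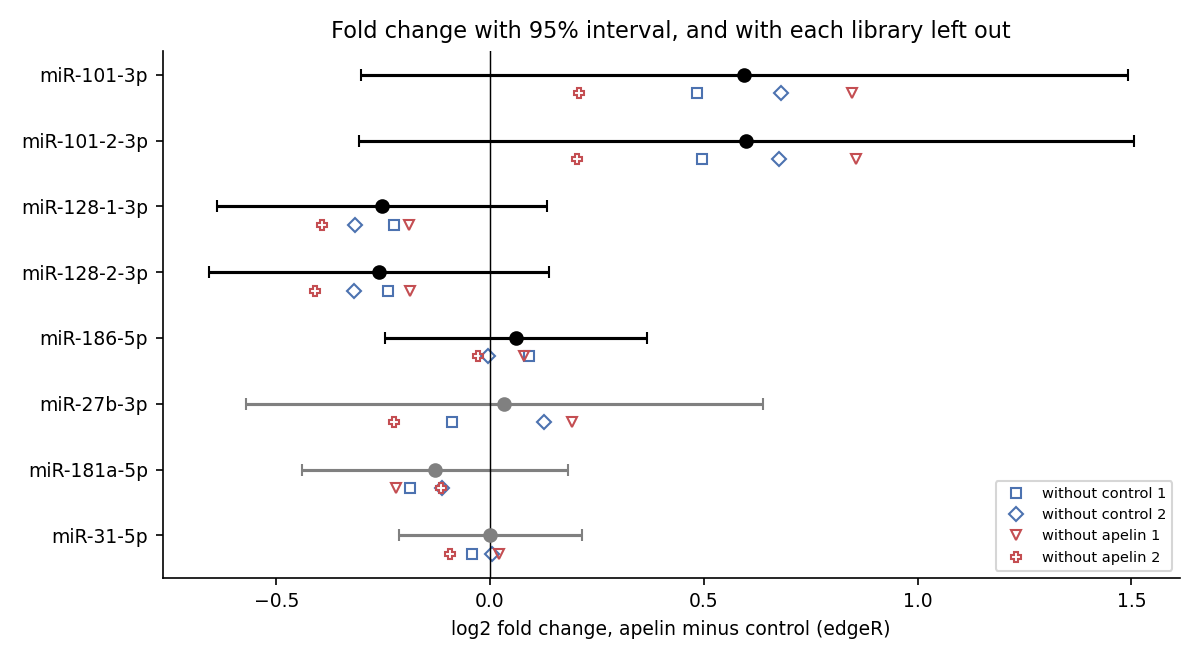
Fitted log2 fold change, apelin minus control (horizontal axis), with its 95% interval for the 5 rows (black) and for 3 other miRNAs linked to the VEGF-C pathway (grey); open marks below each are the value with 1 library left out. All 8 intervals span 0, and the miR-101 values reach from 0.20 without apelin 2 to 0.86 without apelin 1.

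In all 5 rows the control and apelin libraries did not overlap in TPM, with 3 rows above and 2 below. This count and the shares below are in TPM, and with TMM scaling miR-186-5p did overlap. Of all 263 tested entries 38.4% did not overlap, 20.9% with both apelin libraries above both controls and 17.5% with both below. Among 207 tested rows with a catalogue name and no 0 in any library, 40.1% did not overlap, 22.7% above and 17.4% below. With 3 mature sequences behind the 5 rows, nothing is read from this count. The median log2 fold change of the 5 rows was 0.061 (the miR-186-5p value), beside -0.018 over all tested entries. Among the same 207 catalogue miRNAs the log2 fold changes of miR-101-2-3p and miR-101-3p ranked 14 and 15 from the top, those of miR-128-2-3p and miR-128-1-3p ranked 34 and 35 from the bottom, and that of miR-186-5p ranked 89 from the top. The p-values of the miR-101 and miR-128 rows ranked between 42 and 47 of 263.

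**Figure D4:**
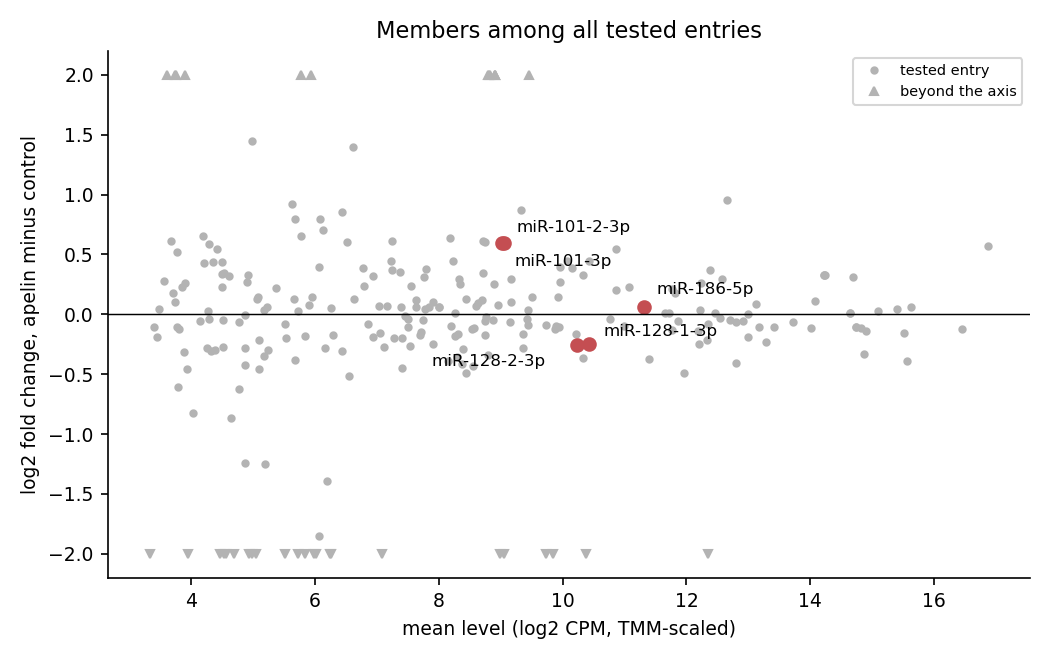
Mean level (log2 CPM, TMM-scaled, horizontal axis) against log2 fold change, apelin minus control (vertical axis, ends at 2 in either direction), for the 263 tested entries (grey) and the 5 rows (red); triangles are entries beyond the axis. The miR-101 rows lie at 0.60, the miR-128 rows near -0.25 and miR-186-5p near 0, inside the spread of entries at their level.

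The ratio of 2 miRNAs within a library does not depend on how libraries are scaled. These ratios were chosen after the values were seen and are descriptions. The count of miR-128-1-3p was 4.0 times that of miR-101-3p in control 1 (95% interval 3.82 to 4.19, counting error only) and 3.27 times in control 2 (3.13 to 3.42). It was 2.38 times in apelin 1 (2.28 to 2.49) and 1.76 times in apelin 2 (1.69 to 1.83). The 4 intervals do not overlap each other, and both apelin libraries were below both controls. Libraries of the same group thus differed by more than counting error if each read is 1 molecule. Several PCR reads per molecule would make the intervals wider. The mean ratio was 3.63 ± 0.52 (SD, n = 2) in controls and 2.07 ± 0.44 (SD, n = 2) with apelin, a log2 difference of -0.82. An exact permutation test (two-sided) gave p = 0.33, the smallest that 2 against 2 libraries allow. With 1 library left out the log2 difference ran from -1.04 to -0.60.

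Against miR-186-5p, the steadiest of the 3, the miR-128-1-3p ratio was 0.600 and 0.602 in controls 1 and 2, and 0.467 and 0.499 in apelin 1 and 2. The control libraries were thus nearly equal in this ratio and both apelin libraries lower. The ratio of miR-101-3p to miR-186-5p was 0.150 and 0.184 in controls 1 and 2, and 0.196 and 0.284 in apelin 1 and 2. Here control 2 was closer to apelin 1 than to control 1. Exact permutation tests (two-sided) gave p = 0.33 for both ratios.

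**Figure D5:**
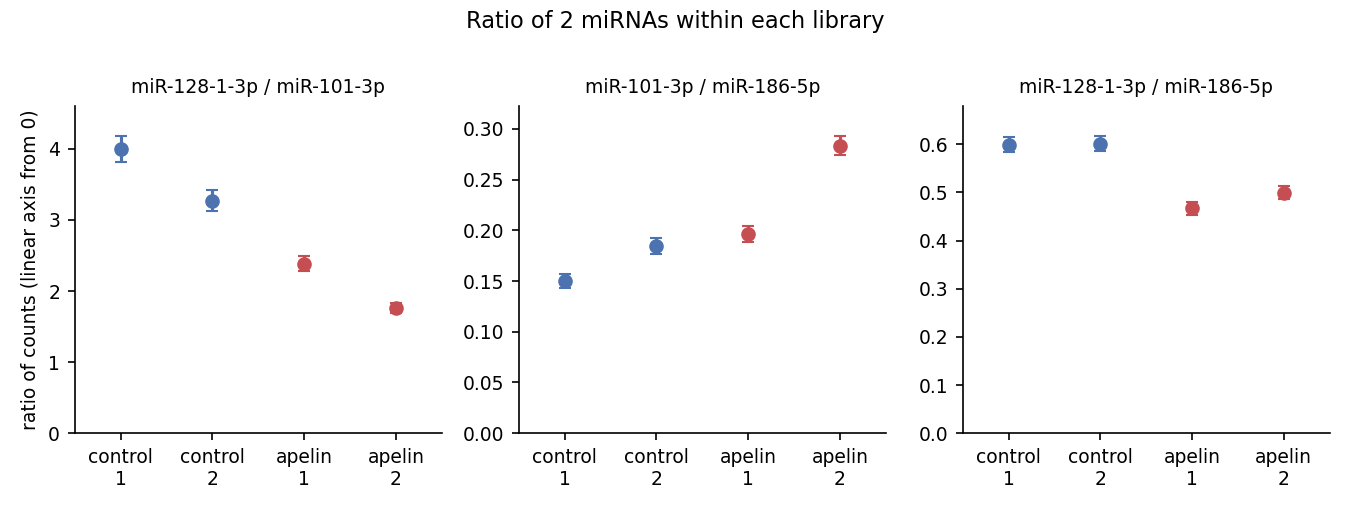
Ratio of the counts of 2 miRNAs (vertical axes, linear from 0) in each control (blue) and apelin (red) library; bars are 95% intervals for counting error only. The miR-128-1-3p to miR-101-3p ratio goes from 4.0 in control 1 to 1.76 in apelin 2, and the miR-128-1-3p to miR-186-5p ratio is 0.600 and 0.602 in the controls.

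Since the strongest seed matches of miR-27 and miR-128 in the VEGFC UTR overlap, the miR-27 levels are given here. miR-27b-3p had 4302 TPM (control 1), 5204 TPM (control 2), 4296 TPM (apelin 1) and 5240 TPM (apelin 2), so the libraries parted by number and not by group. The fitted log2 change was 0.033 (SE 0.19, adjusted p = 0.939 by edgeR), or -0.22 without apelin 2 and -0.089 without control 1. miR-27a-3p had 3960 TPM (control 1), 5456 TPM (control 2), 5277 TPM (apelin 1) and 6646 TPM (apelin 2), a fitted log2 change of 0.37 (SE 0.24, adjusted p = 0.636 by edgeR). Each of the 2 was more abundant than miR-128-1-3p in every library. Summed, miR-128-1-3p, miR-27a-3p and miR-27b-3p had 9783 TPM in control 1, 12145 TPM in control 2, 10785 TPM in apelin 1 and 13164 TPM in apelin 2, so the groups overlapped. miR-128-1-3p made up 15.6% and 12.2% of that sum in controls 1 and 2, and 11.2% and 9.70% in apelin 1 and 2. This takes 1 of the 2 miR-128 rows; with both rows counted, as if they shared no reads, the shares were 25.7%, 20.8%, 19.1% and 16.8% in the same order. The miR-199a-3p and miR-199b-3p rows, which hold bases 2 to 7 of miR-101-3p at their own bases 1 to 6, had the same counts as each other (14 to 25 per library) and were under the minimum for testing.

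A list of other miRNAs reported to act on this pathway had rows for miR-27b-3p (VEGFC), miR-181a-5p and miR-31-5p (both reported to repress PROX1, the regulator of lymphatic identity). The other 6 names on it (miR-206, miR-300, miR-507, miR-624-3p, miR-1826 and miR-1236-3p) were not analysed here. edgeR called 0 of these 3, and so did DESeq2 and limma; at an unadjusted p under 0.05 edgeR also had 0. miR-181a-5p had 3492 TPM (control 1), 3819 TPM (control 2), 3566 TPM (apelin 1) and 3034 TPM (apelin 2), a fitted log2 change of -0.13 (SE 0.096, adjusted p = 0.663 by edgeR). miR-31-5p was the most abundant of the pathway's miRNAs measured here, at 7930 TPM (control 1), 8511 TPM (control 2), 8138 TPM (apelin 1) and 8070 TPM (apelin 2). The fitted log2 change was 0.00089 (SE 0.066, 95% interval -0.21 to 0.21, adjusted p = 0.990 by edgeR), a sign that turned with other scalings (-0.021 with library totals). The median of the 3 was 0.00089, beside -0.018 over all tested entries.

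Likeness of pattern was measured as the root mean square difference of mean-centred log2 CPM over the 4 libraries, among the 207 catalogue miRNAs. After its own copy row, miR-101-2-3p was most like miR-21-5p (0.033), the most abundant miRNA of these cells, and miR-96-5p (0.034). miR-101-3p was most like miR-582-5p (0.032) and miR-651-5p (0.038). miR-21-5p had 91403 TPM (control 1), 103045 TPM (control 2), 113810 TPM (apelin 1) and 168194 TPM (apelin 2), which is the same order of libraries as miR-101. After their copies, both miR-128 rows were most like miR-10a-5p (0.049 from miR-128-1-3p) and miR-3909 (0.055). miR-10a-5p had 5079 TPM (control 1), 5289 TPM (control 2), 4332 TPM (apelin 1) and 4253 TPM (apelin 2). miR-186-5p was most like miR-99a-5p (0.0048), miR-221-3p (0.026) and miR-183-5p (0.030). These are descriptions over 4 points of the same 4 libraries.

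The labelled cell type was compared with markers. Of 4 listed miRNAs of prostate epithelium 3 had rows, and these 3 were low: miR-200c-3p at 23.0 to 33.3 TPM, miR-205-5p at 72.3 to 97.7 TPM and miR-375-3p at 12.1 to 17.7 TPM. The sum of the 3 was 144 and 149 TPM in controls and 120 and 107 TPM with apelin. Each of the 3 was lower in both apelin libraries than in either control (edgeR adjusted p = 0.627 for each), which 17.5% of all tested entries also were. Not on that list, miR-200b-3p, miR-200a-3p and miR-429 were higher. Their mean log2 CPM was 12.7, 9.95 and 8.63, against 4.87 for miR-200c-3p, so the list does not stand for all such miRNAs. Of 13 markers of red cells, leukocytes, liver, muscle, neurons, endothelium and stroma 8 had rows, with a summed level of 349 TPM in both controls and 351 and 446 TPM in apelin 1 and 2. Most of that sum was miR-9-5p, of the neuronal list (298, 299, 300.1 and 399 TPM in the same order), and 4 of the 8 were at 0 in some library. Like miR-101, miR-9-5p was highest in apelin 2. The part of these marker differences in the values of miR-101 and miR-128 was not tested.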

How the data were processed

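Small RNA from PC-3 cells was sequenced in 2 control and 2 apelin libraries; per the labels' protocols, adaptor-ligated cDNA went through PCR and a gel cut of 140 to 160 bp. The authors deposited 1 table of raw counts and TPM for 1096 entries (516 with a catalogue name, 580 predicted) and a listed length, an other unit, in nt. Per the submitters' processing notes, Trimmomatic 0.30 and DESeq2 were used; no aligner, catalogue or build is given in the sources used here. TPM as deposited equal counts per 1000000, within 0.005 in 3 libraries and 0.151 in apelin 2. No value column went unmatched (0).

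The counts were tested with edgeR 4.0.16 (TMM scaling, R 4.3.3). Each SE was obtained by dividing the absolute log2 change by the root of the F statistic. DESeq2 1.42.0 and limma 3.58.1 were alternatives, and all were run on simulated data. The simulated dispersion was 0.0259 or less, against 0.845 in the main fit, so these runs do not show how the tests do on all 263 entries. Other alternatives were filters, scalings, a replicate block and leaving out each library. Matches and figures used Python 3.11.15, pandas 2.3.3, numpy 2.4.6 and matplotlib 3.10.9, with GENCODE 29 and RefSeq sequences. For UTRs the transcript with the longest coding sequence per gene was used. The rule for named miRNAs took all 5 rows, the pathway list and the 3 entries most like each row. The rows and lists were chosen with earlier results of these data known. A planned test of arm shares was not run, as 1 arm of each hairpin was analysed.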

Additional observations from a re-analysis of the deposited data

How the results depend on the processing

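The count of entries called by edgeR, 0, was 4 at a minimum of 100 TPM, 52 with no filter, 53 with DESeq2, 4 with limma on log2(TPM + 1), and 0 to 19 with a library left out. Calls at 0 in some library were 4 of 4, 51 of 52, 30 of 53 and 4 of 4 in these, and every one of the 11 and 19 calls without control 1 and control 2. It was 30 of 207 with a replicate block on catalogue miRNAs above 0 in all libraries with a mean of 10 TPM, a setting added after seeing the data, where edgeR without the block, DESeq2 and limma called 0 each (17, 26 and 19 at an unadjusted p under 0.05). Of the 5 rows edgeR called 0, DESeq2 1 (miR-128-1-3p) and the added blocked run 2, both miR-101 rows (log2 fold change 0.56, adjusted p = 0.0173 for each). On all 263 entries the replicate block called 0 entries and 0 of the 5 rows (miR-101-3p 0.57, adjusted p = 0.257). Nothing in the labels pairs libraries by number; deviations of same-numbered libraries correlated at 0.313 over 207 miRNAs.

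Over 18 alternatives the 2 miR-101 rows stayed positive (0.20 to 0.86) and the 2 miR-128 rows negative (-0.41 to -0.19); edgeR, DESeq2 and limma adjusted p ran from 0.0173 to 0.974 and from 0.0499 to 0.974. miR-186-5p ran from -0.029 to 0.091 and turned negative in 2, both with a library left out. miR-27b-3p ran from -0.22 to 0.19 with a library left out. miR-31-5p, 0.00089, was -0.014 on catalogue miRNAs above 0 in all libraries (-0.011 with a mean of 10 TPM, and there -0.011 with a replicate block, -0.0079 with DESeq2 and -0.020 with limma), -0.021 with library totals, -0.0049 with DESeq2 size factors, -0.0049 with DESeq2, -0.020 with limma, -0.011 with same-count rows collapsed and -0.094 to 0.022 with a library left out. The pathway list's median ran from -0.11 to 0.022 when a library was left out. Leaving out a library leaves fewer samples; for the rest the cause was not tested. Summed per family, the log2 difference in TPM was 0.55 for miR-101, -0.28 for miR-128 and 0.042 for miR-186. On TMM-scaled CPM it was 0.57, -0.26 and 0.062 in the same order. Leaving out 1 library could not turn its sign, since in TPM both apelin libraries lay on 1 side of both controls in each family. The 5 rows had at least 2289 counts in every library. The common dispersion of the fit was 0.845 over all tested entries and 0.0259 over the 207 miRNAs.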
